A study of Homo sapiens with 16 samples.

Results

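The genes described here are the plasma cell receptor BCMA, its sister receptors TACI and BAFF-R, and subunits of gamma-secretase, the protease that cuts BCMA from the cell surface. They are TNFRSF17 (BCMA), TNFRSF13B (TACI), TNFRSF13C (BAFF-R), PSEN2 (presenilin 2), NCSTN (nicastrin), APH1A and PSENEN (presenilin enhancer). The 7 symbols were taken as a fixed list and looked up in the gene-level count tables, which together hold 15529 genes. This list and the gene lists used below were chosen with earlier results of these data known. Their counts, set beside shares of all genes, are therefore descriptions. All 7 were listed and tested in the KMS27 table and 6 in the KMS12PE table, where TNFRSF13B was not analysed here.

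BCMA, TACI and BAFF-R belong to the tumour necrosis factor receptor superfamily and bind the cytokines APRIL and BAFF, with BAFF-R binding BAFF alone. They signal through TRAF adaptors to NF-kB. BCMA is carried mainly by plasma cells, where it is known to sustain survival, and it is a target of antibody and CAR T cell treatment in myeloma. Gamma-secretase is a membrane complex built from a presenilin, which holds the catalytic site, nicastrin, an APH1 protein and the presenilin enhancer. It cuts many single-pass membrane proteins after their outer part has been shed, and it cuts BCMA directly, which releases soluble BCMA.

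RNA was sequenced from 8 cell populations, with 2 libraries each and 16 in all. The resistant populations were clones A, C and D of KMS12PE and clones B5, C1 and C5 of KMS27, each grown from 1 cell that outlived high-dose venetoclax, an inhibitor of BCL2, and kept in 100 nM venetoclax. They were set against the parental populations of the same lines. KMS12PE and KMS27 are human multiple myeloma cell lines that both carry t(11;14), and all populations were cultured in RPMI-1640 with serum. The parental dose is not stated, so drug, selection and single-cell origin cannot be told apart, and the receptors' ligands come only from the culture itself or its serum.

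Total counts ran from 5831289 to 13674426 per library in KMS12PE and from 20257318 to 52615971 in KMS27. Levels are given as CPM, the usual unit of read counts divided by the TMM-scaled library size. A count of 3 corresponded to 0.212 to 0.527 CPM in KMS12PE and to 0.0596 to 0.16 CPM in KMS27. The labels do not say whether the libraries of a population came from separate cultures, so p-values measure the spread between libraries, which may be technical. Both libraries of clone B5 differed from each other more than those of any other population, with a chi-square of 54.5 per degree of freedom against 4.95 to 21.4 elsewhere. The plasma cell factors IRF4, PRDM1 and XBP1 were present in every library. IRF4 lay between 879.6 and 1305 CPM in the KMS12PE clones, against 903 and 1001 CPM in the parental libraries, and between 1454 and 1966 CPM in the KMS27 clones, against 1770 and 1825 CPM in parental cells. Of 9 markers of T, NK, myeloid and stromal cells, 1 was listed in KMS12PE and 3 in KMS27.

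TNFRSF17 was high in all 8 populations and stood apart in 1 of them, clone D of KMS12PE. Its libraries there had 211 and 187 CPM, against 76.1 and 83.7 CPM in the parental libraries. Clone A had 83.9 and 75.8 CPM and clone C had 80.8 and 73.4 CPM. Both clone D libraries were therefore above every other KMS12PE library, while clones A and C overlapped the parental range. Against parental cells TNFRSF17 rose in clone D by a log2 fold change of 1.31 (SE 0.11, adjusted p = 0.000159, edgeR's quasi-likelihood test with Benjamini-Hochberg adjustment over all genes). This call passed in all 14 alternative settings, with log2 fold changes between 1.23 and 1.40. In clone A the log2 fold change was -0.00 (SE 0.11, adjusted p = 0.998, edgeR) and in clone C it was -0.05 (SE 0.11, adjusted p = 0.963, edgeR). The difference among the 3 clones was itself past the threshold, with a spread of 1.37 on the log2 scale (adjusted p = 8.93e-05, edgeR). TNFRSF17 was the 1 of 6 members called in clone D, where 5.16% of all tested genes were called. In bulk RNA, more cells with the transcript and more transcript per cell cannot be told apart.

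Averaged over the 3 clones, TNFRSF17 in KMS12PE had 119 ± 69.6 CPM (SD over 3 clones), against 79.9 ± 5.43 CPM in parental cells (SD, 2 libraries). The log2 fold change of that mean was 0.42 (SE 0.09) and did not pass (adjusted p = 0.0689, edgeR). With the replicate number as a block it was 0.41 and passed (adjusted p = 0.000573, edgeR). Without clone D it was -0.02 (adjusted p = 0.979, edgeR), so the mean rests on that clone.

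In KMS27 the 3 clones parted in both directions. TNFRSF17 had 112 and 145 CPM in clone B5, 123 and 142 CPM in clone C1, and 82.8 and 79.4 CPM in clone C5, against 97.8 and 116 CPM in the parental libraries. Both clone C1 libraries were above both parental libraries and both clone C5 libraries were below them. Clone B5 overlapped the parental range. No single clone passed against parental cells, with log2 fold changes of 0.26 in B5 (SE 0.15, adjusted p = 0.261), 0.31 in C1 (SE 0.15, adjusted p = 0.171) and -0.40 in C5 (SE 0.15, adjusted p = 0.0978, all edgeR). The difference among the clones passed, with a spread of 0.71 (adjusted p = 0.0253, edgeR). It was lost without either library of C1 (adjusted p = 0.0758 and 0.0852) or of C5 (adjusted p = 0.147 and 0.169). For TNFRSF17 a clone call was gained without 1 library of B5: in C5 at -0.40 without either one (adjusted p = 0.016 and 0.0154), in C1 at 0.32 and 0.31 (adjusted p = 0.038 and 0.0413), and in B5 at 0.45 without its replicate 1 (adjusted p = 0.0195, all edgeR).

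TNFRSF13B encodes TACI, the second receptor for both APRIL and BAFF. In KMS27 it had 22.3 and 24.8 CPM in clone B5, 31.7 and 33.2 CPM in clone C1, and 19.4 and 21.8 CPM in clone C5, against 25.4 and 25.9 CPM in parental cells. Clone C1 was above, and clones B5 and C5 were below, both parental libraries. As with TNFRSF17, the clones differed among themselves (spread 0.66, adjusted p = 0.0159, edgeR). No single clone passed against parental cells, with clone B5 at a log2 fold change of -0.12 (adjusted p = 0.516), clone C1 at 0.34 (adjusted p = 0.0696) and clone C5 at -0.32 (adjusted p = 0.0972, all edgeR). The difference among clones for TNFRSF13B was lost without either library of C1 (adjusted p = 0.0855 and 0.096) or of C5 (adjusted p = 0.0813 and 0.0553), and the C1 rise passed without either library of B5 (adjusted p = 0.0251 and 0.0292, all edgeR).

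TNFRSF13C encodes BAFF-R, which mature B cells need and plasma cells largely lose, and in KMS27 it was the lowest of the 3 receptors in every library. In KMS12PE it had 1.91 and 3.33 CPM in clone A, 3.44 and 5.08 CPM in clone C, and 1.58 and 2.49 CPM in clone D, against 3.69 and 7.23 CPM in parental cells. These rest on 10 to 72 counts per library, and replicate 3 was above replicate 1 in every population. Within each replicate number every clone was below its parental library. The log2 fold changes of TNFRSF13C were -1.04 in A (SE 0.44, adjusted p = 0.654), -0.36 in C (SE 0.42, adjusted p = 0.901) and -1.38 in D (SE 0.46, adjusted p = 0.146), so none was called (edgeR). With the replicate number as a block, clone A at -1.05 (adjusted p = 0.0438), clone D at -1.42 (adjusted p = 0.00274) and the mean of the clones at -0.94 (adjusted p = 0.0179) passed, against a mean of -0.93 without the block (adjusted p = 0.357, all edgeR). The difference among the clones for TNFRSF13C passed with the block as well (adjusted p = 0.0181, against 0.371 without it).

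In KMS27 TNFRSF13C had 5.12 and 1.86 CPM in clone B5, 1.73 and 1.61 CPM in clone C1, and 1.58 and 1.64 CPM in clone C5, against 2.43 and 1.17 CPM in parental cells. One B5 library stood above all 7 others and the remaining values overlapped. The mean of the clones did not pass (log2 fold change 0.23, SE 0.41, adjusted p = 0.722, edgeR). Without replicate 2 of B5, TNFRSF13C was called in that clone at 1.50 (adjusted p = 0.0154, edgeR), a value that then rests on the 1 high library.

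The genes whose pattern was most like that of TNFRSF17 were ranked by Pearson's r of log2 CPM centred within each line, over 16 libraries and 11353 genes. XK, a membrane protein of red cells, was first at 0.927, followed by the transcription factor ETV6 at 0.914, NMRK1, a kinase of nicotinamide riboside, at 0.882, the endoplasmic reticulum protein VIMP at 0.877 and the orphan receptor GPR160 at 0.876. Libraries of a line share their processing and clone D carries much of the variation, so these values are descriptions. Within KMS12PE the values for these 5 genes were 0.948 to 0.990. Within KMS27 GPR160 had 0.931 and ETV6 0.780, while XK, VIMP and NMRK1 had 0.653, 0.598 and 0.530. In clone D against parental cells, XK had a log2 fold change of 0.85, ETV6 and GPR160 of 0.72 each, NMRK1 of 0.61 and VIMP of 0.46.

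The ligand genes were low. TNFSF13, which encodes APRIL, was the 1 ligand gene of 3 listed in KMS12PE, at 5.52 to 10.1 CPM in the clones, against 4.04 and 6.13 CPM in parental cells, and was not called (log2 fold change 0.53, adjusted p = 0.552, edgeR). In KMS27 TNFSF13 had 14.1 and 21.3 CPM in clone B5 and 10.2 to 14.1 CPM in clones C1 and C5, against 9.32 and 10.3 CPM in parental cells. It was called in B5 at 0.84 (adjusted p = 0.0217, edgeR). TNFSF13 lost that call without either parental library (adjusted p = 0.126 and 0.0747) and at 0.52 without replicate 2 of B5 (adjusted p = 0.0712). TNFSF13B, which encodes BAFF, had 0.160 to 0.576 CPM in the KMS27 clones, against 0.689 and 0.975 CPM in parental cells, and all 6 clone libraries were below both parental ones. It fell by 1.39 on the log2 scale (SE 0.39, adjusted p = 0.0293, edgeR), on 4 to 25 counts per library. For TNFSF13B the call was lost without any single library of the parental population, C1 or C5 (adjusted p = 0.0523 to 0.234) and with DESeq2 (adjusted p = 0.105).

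Of 22 adaptors, ubiquitin ligases, kinases and NF-kB factors below these receptors, all were tested in both lines. In KMS12PE none was called in the mean of the clones (0 of 22, background 1.47% of all genes), with a median log2 fold change of 0.01 beside -0.00 over all genes. Clone D had 1 call: BIRC3, an NF-kB target and ubiquitin ligase, had 58.5 and 69.3 CPM there, against 32.0 and 41.8 CPM in parental cells, a rise of 0.79 (adjusted p = 0.0169, edgeR). BIRC3 lost that call at 0.66 without replicate 3 of clone D (adjusted p = 0.0818) and at 0.64 without parental replicate 1 (adjusted p = 0.11).

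In KMS27 4 of the 22 rose and 3 fell in the mean of the clones, where 25.8% of all genes were called. NFKBIE, an inhibitor of NF-kB, rose by 0.81 (SE 0.12, adjusted p = 0.00164) and IKBKG, the regulatory subunit of the IkB kinase, by 0.62 (SE 0.12, adjusted p = 0.00515). BIRC2, a ubiquitin ligase that holds back the non-canonical branch, fell by 0.48 (SE 0.10, adjusted p = 0.00862), and RELA, a main NF-kB factor, fell by 0.46 (SE 0.10, adjusted p = 0.0104, all edgeR). Each moved one way in 6 of 6 clone libraries. The calls of IKBKG, BIRC2 and RELA were lost without either parental library (adjusted p = 0.0521 to 0.0982). The median of the 22 was 0.01, beside -0.01 over all genes.

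Among the member genes of gamma-secretase, APH1A and PSEN2 were called higher in the mean of the KMS27 clones, where 13% of all genes were. PSENEN was called lower in clone C5 alone, where 9.28% of all genes were called lower. The subunit genes were not tested against each other. APH1A, which scaffolds the complex, had 259 and 384 CPM in clone B5, 298 and 315 CPM in clone C1, and 276 and 287 CPM in clone C5, against 189.6 and 227 CPM in parental cells. All 6 clone libraries were above both parental libraries. APH1A rose by 0.54 in the mean of the clones (SE 0.15, adjusted p = 0.0317, edgeR). By clone it was called in B5 at 0.63 (SE 0.18, adjusted p = 0.0395), while clone C1 had 0.56 (adjusted p = 0.0589) and clone C5 0.43 (adjusted p = 0.135, all edgeR). The APH1A mean call was lost without any single library of the parental population, C1 or C5 (log2 fold changes 0.42 to 0.68, adjusted p = 0.0697 to 0.275), and the call in B5 likewise (adjusted p = 0.0766 to 0.237). The B5 value of APH1A was 0.31 without replicate 2 of B5 (adjusted p = 0.128).

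PSEN2 encodes presenilin 2, a catalytic subunit. In KMS27 it had 18.3 and 25.6 CPM in clone B5, 27.3 and 26.9 CPM in clone C1, and 20.6 and 22.9 CPM in clone C5, against 16.4 and 18.2 CPM in parental cells. Again 6 of 6 clone libraries were above both parental libraries, a separation whose share over all genes was not counted. PSEN2 rose by 0.44 in the mean of the clones (SE 0.14, adjusted p = 0.0439) and by 0.65 in C1 (SE 0.16, adjusted p = 0.0232, both edgeR), while clone B5 had 0.34 (adjusted p = 0.181) and clone C5 0.33 (adjusted p = 0.199). Both PSEN2 calls were lost without either parental library, and the mean also without any library of C1 or C5 (0.38 to 0.52, adjusted p = 0.075 to 0.288) and the C1 call without either C1 library (adjusted p = 0.132 and 0.0905).

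NCSTN encodes nicastrin, the large glycoprotein that admits substrates. It had 197 and 211 CPM in clone B5, 207 and 218 CPM in clone C1, and 176 and 201 CPM in clone C5, against 161 and 169.6 CPM in KMS27 parental cells, so that 6 of 6 clone libraries were above. The log2 fold change of the mean, 0.29 (SE 0.10), missed the threshold (adjusted p = 0.0553, edgeR). NCSTN passed at 0.31 and 0.27 without replicate 1 or 2 of B5 (adjusted p = 0.0151 and 0.0347) and with DESeq2 at 0.28 (adjusted p = 0.0257).

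PSENEN encodes the smallest subunit, which completes the complex, and it went the other way. It had 35.9 and 47.2 CPM in clone B5, 40.0 and 40.5 CPM in clone C1, and 29.5 and 33.9 CPM in clone C5, against 42.1 and 54.4 CPM in KMS27 parental cells. Of the clone libraries 5 of 6 were below both parental libraries. PSENEN fell in clone C5 by 0.61 (SE 0.17, adjusted p = 0.0325, edgeR), while clone B5 had -0.22 (adjusted p = 0.395) and clone C1 -0.26 (adjusted p = 0.283). Its mean over the clones was -0.36 (SE 0.13, adjusted p = 0.0754, edgeR), and passed without replicate 1 or 2 of B5 (-0.29 and -0.43, adjusted p = 0.0438 and 0.00743). The PSENEN call in C5 was lost without parental replicate 2 (adjusted p = 0.231) and without any library of C1 or C5 (adjusted p = 0.0664 to 0.224).

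**Figure D1:**
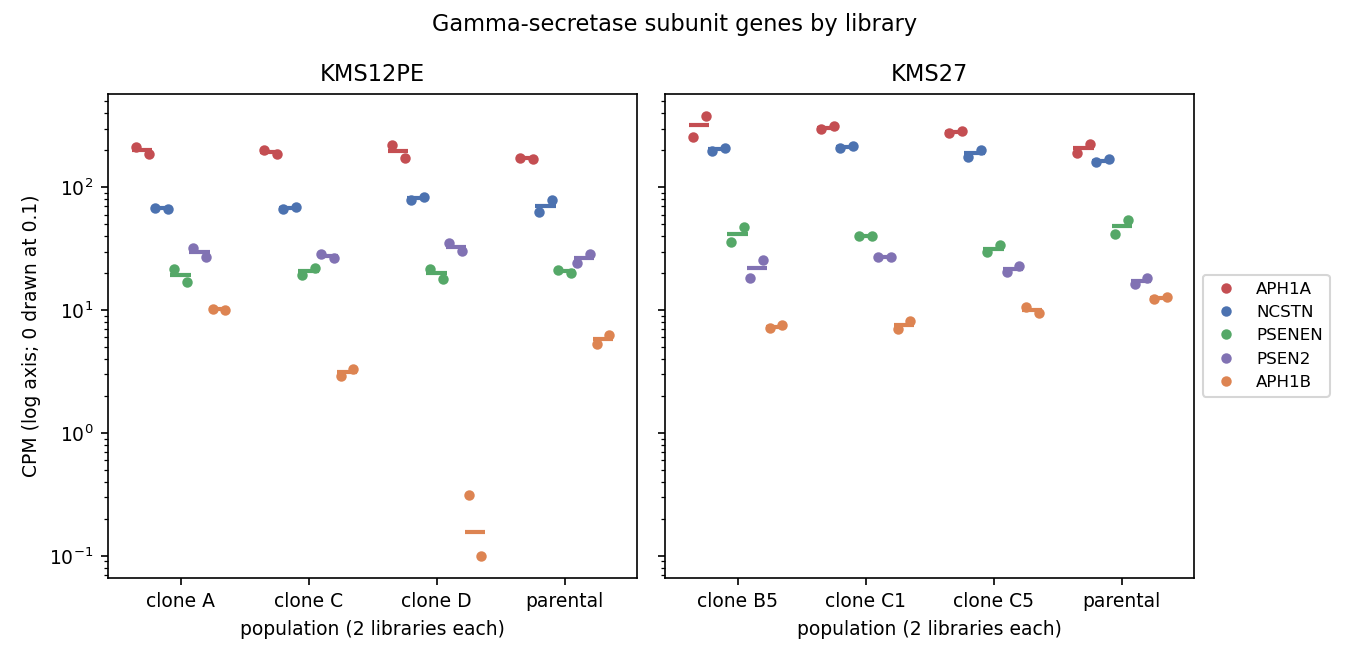
CPM on a log axis of the gamma-secretase subunit genes APH1A, NCSTN, PSENEN, PSEN2 and APH1B in each library (points), with the mean of the 2 libraries as a bar and a value of 0 drawn at 0.1. In KMS27 the APH1A, NCSTN and PSEN2 points of all 3 clones lie above the parental points. In KMS12PE the APH1B points fall apart by clone, with 0.315 and 0.0 CPM in clone D, while none of the other 4 genes was called.

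In KMS12PE none of the 4 subunit genes was called in any clone or in the mean. APH1A had 215 and 187 CPM in clone A, 202 and 186 CPM in clone C, and 221 and 174 CPM in clone D, against 174 and 171 CPM in parental cells, with all 6 clone libraries above the parental ones by a narrow margin (mean log2 fold change 0.19, SE 0.10, adjusted p = 0.589, edgeR). PSEN2 had 32.1 and 27.1 CPM in clone A, 28.9 and 26.4 CPM in clone C, and 35.3 and 30.3 CPM in clone D, against 24.2 and 28.4 CPM in parental cells (0.18, adjusted p = 0.725). NCSTN had 67.6 and 66.9 CPM in clone A, 66.4 and 69.2 CPM in clone C, and 79.5 and 83.5 CPM in clone D, against 62.7 and 79.0 CPM in parental cells (0.02, adjusted p = 0.987). Clone D was the highest population for NCSTN, and with the replicate block the clones differed among themselves (spread 0.28, adjusted p = 0.0195, edgeR; without it adjusted p = 0.26). PSENEN had 21.8 and 16.9 CPM in clone A, 19.4 and 22.2 CPM in clone C, and 21.8 and 18.1 CPM in clone D, against 21.3 and 20.1 CPM in parental cells, and overlapped throughout (-0.05, adjusted p = 0.969, edgeR).

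Promoter sequences are shown for the subunit genes called in KMS27, APH1A and PSEN2, which rose, and PSENEN, which fell in clone C5. They are from RefSeq on GRCh38.p14 and span 300 bases around the annotated start, 5′ to 3′ on the gene's strand. APH1A is at chr1:150268967-150269266 on the minus strand, PSEN2 at chr1:226870366-226870665 on the plus strand and PSENEN at chr19:35745401-35745700 on the plus strand. Capitals mark a GC box (GGGCGG or its reverse complement CCGCCC) in the first pair and the core TGACGT, on the reverse strand as ACGTCA, in PSENEN.
APH1A: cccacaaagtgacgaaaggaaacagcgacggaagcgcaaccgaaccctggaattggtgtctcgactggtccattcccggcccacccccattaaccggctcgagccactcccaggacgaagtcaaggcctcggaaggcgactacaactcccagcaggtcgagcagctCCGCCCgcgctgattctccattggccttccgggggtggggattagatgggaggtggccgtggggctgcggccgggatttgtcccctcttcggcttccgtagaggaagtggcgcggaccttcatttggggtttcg
PSEN2: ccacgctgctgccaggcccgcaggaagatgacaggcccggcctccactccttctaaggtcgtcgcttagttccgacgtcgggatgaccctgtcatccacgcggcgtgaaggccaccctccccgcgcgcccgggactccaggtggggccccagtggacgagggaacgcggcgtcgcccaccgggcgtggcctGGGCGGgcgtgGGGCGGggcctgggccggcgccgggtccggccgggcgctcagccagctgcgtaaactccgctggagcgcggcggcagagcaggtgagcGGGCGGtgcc
PSENEN: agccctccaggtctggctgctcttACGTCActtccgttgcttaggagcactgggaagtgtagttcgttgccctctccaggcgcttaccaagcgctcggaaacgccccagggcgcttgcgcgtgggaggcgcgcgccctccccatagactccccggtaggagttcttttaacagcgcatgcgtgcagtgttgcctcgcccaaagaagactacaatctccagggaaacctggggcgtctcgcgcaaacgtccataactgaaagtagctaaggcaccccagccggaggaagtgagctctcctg
Of the 7 members 5 had a RefSeq promoter, and TNFRSF17 and TNFRSF13C had none in the table. Both strands were searched for the GC box, for TATAAA of the TATA box, for the E-box CACGTG and for the core TGACGT. A GC box was present 3 times in PSEN2 and once each in APH1A and TNFRSF13B, and 45.0% of 35116 human promoters hold it. TGACGT was present once each in PSENEN and NCSTN, against 7.98% of all promoters. The TATA box letters, held by 11.5%, and the E-box, held by 7.26%, matched in none of the 5. GC content was 75.0% in PSEN2, 62.7% in NCSTN, 62.3% in APH1A, 60.0% in PSENEN and 57.3% in TNFRSF13B, against a median of 58.7%. CpG dinucleotides numbered 38 in PSEN2 and 5 in TNFRSF13B, against a median of 14. These matches describe letters in a window and were not tested against expression.

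APH1B encodes the alternative APH1 subunit, which takes the place of APH1A in part of the complexes, and it was the gene of the assembly list with the widest range. In KMS12PE it had 10.2 and 10.1 CPM in clone A, 2.91 and 3.32 CPM in clone C, and 0.315 and 0.0 CPM in clone D, against 5.27 and 6.28 CPM in parental cells. Clone A was above and clones C and D were below both parental libraries. Clone D held 2 counts in all, against 70 in parental cells, a ratio of 0.0196 after scaling (exact 95% interval 0.00233 to 0.0735, counting error only). The fall of APH1B in clone D was called (adjusted p = 0.00131), clones A and C were not (adjusted p = 0.673 and 0.44), and the clones differed among themselves (adjusted p = 0.000592, all edgeR). The fall of the mean, -1.86 (adjusted p = 0.0454), was -0.03 without clone D (adjusted p = 0.989) and lost its call without any single library of the parental population, A or C (adjusted p = 0.0876 to 0.383). TNFRSF17 was highest, and APH1B lowest, in the same clone.

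In KMS27 APH1B had 7.16 and 7.55 CPM in clone B5, 7.01 and 8.10 CPM in clone C1, and 10.7 and 9.50 CPM in clone C5, against 12.4 and 12.8 CPM in parental cells. All 6 clone libraries were below both parental ones. APH1B fell by 0.61 in the mean of the clones (SE 0.13, adjusted p = 0.00767), clone B5 being called at -0.78 (adjusted p = 0.00992) and clone C1 at -0.74 (adjusted p = 0.0118), while clone C5 had -0.32 (adjusted p = 0.198, all edgeR). These APH1B calls were lost without either parental library (adjusted p = 0.0614 to 0.082), that of C1 also without replicate 1 of C1 (adjusted p = 0.106), and that of B5 also when B5 and parental cells were fitted alone (adjusted p = 0.0529). Thus APH1A rose and APH1B fell in the mean of the same clones. SERP1, a stress-induced protein of the endoplasmic reticulum, fell by 0.71 (SE 0.10, adjusted p = 0.00113, edgeR), with 168 to 259.6 CPM in the clones, against 326 and 359.8 CPM in parental cells. TMED2, a carrier of vesicle cargo, had 395 and 353 CPM in clone C5, against 533 and 607 CPM in parental cells, and fell there by 0.61 (adjusted p = 0.0332, edgeR), a call lost without any single library of C5 or the parental population (adjusted p = 0.0895 to 0.226). Of 7 tested assembly and trafficking genes, 2 fell and none rose in the mean contrast, where 12.7% of all genes were called lower, and in KMS12PE 1 of 6 fell (1.12% of all genes).

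**Figure D2:**
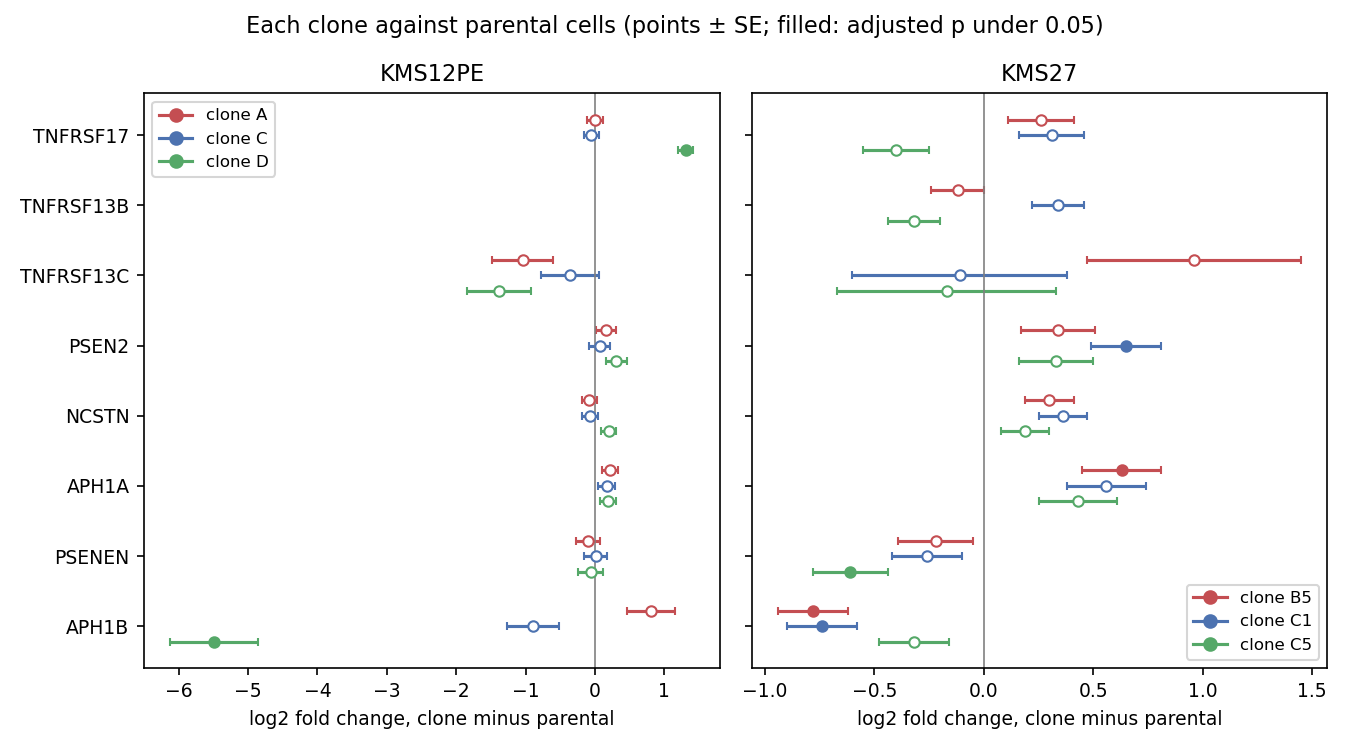
Log2 fold change of each clone minus parental cells (points, with bars of 1 SE) for the 7 members and APH1B, with filled points at an adjusted p under 0.05; the horizontal scales of the KMS12PE and KMS27 panels differ. TNFRSF17 at 1.31 and APH1B at -5.49, both in clone D, are the filled points of KMS12PE; the APH1B value is a fitted one from 2 counts. In KMS27 the filled members are APH1A in B5, PSEN2 in C1 and PSENEN in C5.

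Set against all genes, the members' calls were few in number and near the background in KMS27. In the mean contrast 2 of 7 members were called there, both higher, where 25.8% of all genes were called and 13% were called higher. In single clones 1 of 7 was called in B5 (background 21%), 1 of 7 in C1 (21.6%) and 1 of 7 in C5 (19.7%). By direction, clone B5 had 10.8% of all genes called higher and 10.2% lower, clone C1 11.5% and 10.1%, and clone C5 10.4% and 9.28%, beside 12.7% lower in the mean. No member was called in each of the 3 KMS27 clones, where 4.5% of all genes were called higher in each. In KMS12PE 0 of 6 were called in the mean (1.47%), 0 in clone A (0.448%), 0 in clone C (1.78%) and 1 in clone D (5.16%). With the replicate number as a block, members called were 2 in the mean, 1 in clone A, 0 in clone C and 2 in clone D, where all genes called numbered 798, 448, 869 and 2019 of 12279, against 181, 55, 219 and 634 without the block. The backgrounds by direction without it were 0.358% higher and 1.12% lower in the mean, 0.212% and 0.236% in clone A, 0.904% and 0.88% in clone C, and 1.86% and 3.31% in clone D, and 0.0407% of genes were called lower in each of the 3 clones. Among clones, 1 of 6 members differed in KMS12PE (8.22%) and 2 of 7 in KMS27 (13.7%). The members' median log2 fold change was 0.10 in KMS12PE and 0.23 in KMS27, beside -0.00 and -0.01 over all genes. With a library of B5 left out, 4 members were called in the KMS27 mean (APH1A, PSEN2 and NCSTN higher, PSENEN lower), and with any library of the parental population, C1 or C5 left out, none was.

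The 3 subunit genes with all 6 KMS27 clone libraries above the parental ones lie on chromosome 1. The share of all genes with that separation was not counted. On GRCh38 with GENCODE 29, APH1A is at chr1:150265399-150269580 on the minus strand, NCSTN at chr1:160343272-160358952 on the plus strand and PSEN2 at chr1:226870184-226896105 on the plus strand. PSENEN is at chr19:35745114-35747519 and TNFRSF17 at chr16:11965107-11968068, both on the plus strand. Tested genes within 5 Mb of each start were used as neighbours, of which 12205 of 14088 KMS27 genes could be placed. In the KMS27 mean contrast the neighbours of APH1A had a median log2 fold change of 0.20, with 41 called higher and 7 lower of 147. Those of NCSTN had 0.14, with 22 higher and 7 lower of 85, and those of PSEN2 had 0.19, with 16 higher and 4 lower of 61. The neighbours of PSENEN had -0.19, with 5 higher and 25 lower of 133. In this contrast the genes' own values were 0.54 for APH1A, 0.44 for PSEN2, 0.29 for NCSTN and -0.36 for PSENEN, of which the first pair passed, and each was on the side of its neighbours' median and farther from 0. In clone B5 PSENEN had -0.22, beside -0.27 for its neighbours. The part of the neighbourhood in these values was not tested.

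TNFRSF17 and APH1B were set beside their neighbours in the same way. In KMS12PE clone D the 36 neighbours of TNFRSF17 had a median of 0.03 with 0 called higher and 1 lower, beside 1.31 for the gene itself. In KMS27 the neighbours of TNFRSF17 had -0.27 in C1 and -0.25 in C5, beside 0.31 and -0.40 for the gene, which was on the other side in C1 and on the same side in C5. APH1B is at chr15:63276018-63309126 on the plus strand. Its 57 neighbours in clone D of KMS12PE had a median of -0.08, with 1 called higher and 1 lower, and its 56 neighbours in the KMS27 mean had 0.06, beside -0.61 for the gene.

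**Figure D3:**
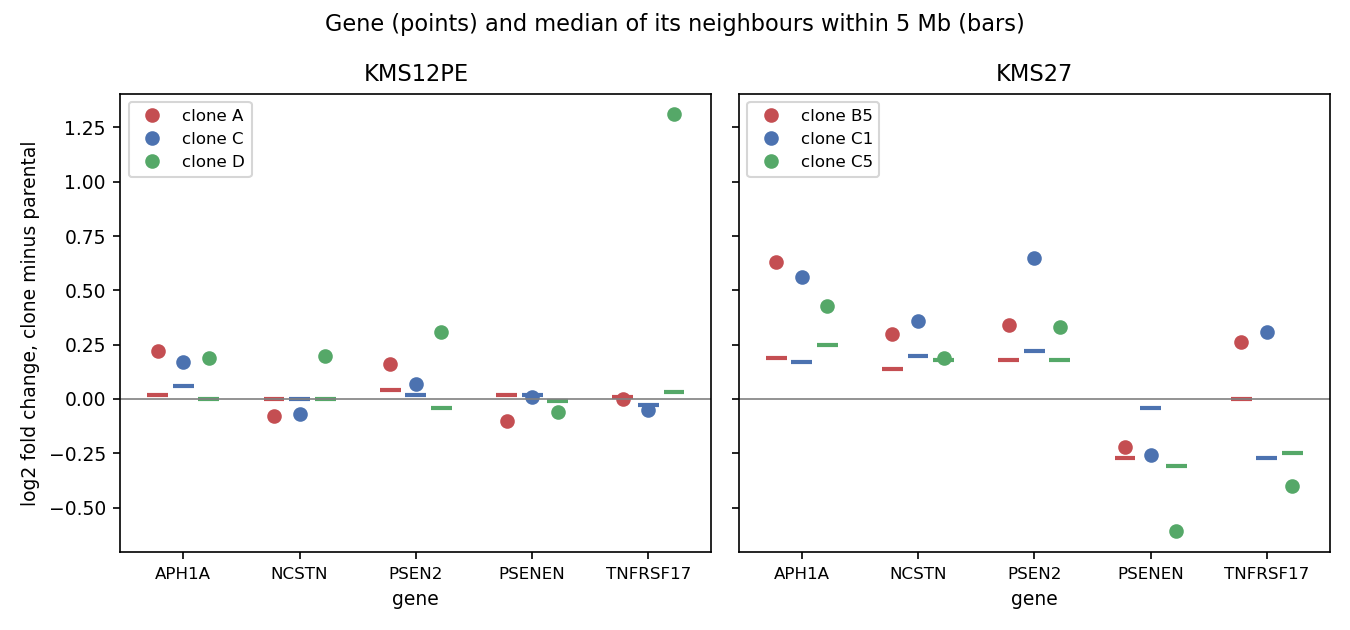
Log2 fold change of each clone minus parental cells for APH1A, NCSTN, PSEN2, PSENEN and TNFRSF17 (points), beside the median of the tested genes within 5 Mb of the gene's start (bars), by line. In KMS27 the bars of APH1A, NCSTN and PSEN2 lie above 0 and those of PSENEN below it in all 3 clones. In KMS12PE the bars lie near 0, including 0.03 for TNFRSF17 in clone D.

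Per length of exon, as CPM per kb of the gene's joined exons, the order of levels was the same for the highest genes in both lines. In KMS12PE parental cells TNFRSF17 was first at 71.5 ± 4.86, followed by APH1A at 49.7 ± 0.713, NCSTN at 17.0 ± 2.76, PSENEN at 11.2 ± 0.441, PSEN2 at 7.02 ± 0.792, TNFRSF13C at 1.38 ± 0.634 and APH1B at 1.05 ± 0.131 (SD, 2 libraries each). The last 2 did not differ beyond their spread. In clone D TNFRSF17 reached 178 ± 15.1 CPM per kb, beside 56.9 ± 9.39 for APH1A. In KMS27 parental cells TNFRSF17 had 95.6 ± 11.6, APH1A 60.0 ± 7.59, NCSTN 39.6 ± 1.49, PSENEN 26.1 ± 4.71, TNFRSF13B 7.22 ± 0.118, PSEN2 4.60 ± 0.343, APH1B 2.30 ± 0.045 and TNFRSF13C 0.456 ± 0.226. In clone C5 of KMS27 APH1A, at 81.0 ± 2.32 CPM per kb, stood above TNFRSF17, at 72.5 ± 2.19. Some exons are shared with other genes, and strandedness is not given in the sources used here. On the opposite strand the antisense gene AD000671.3 shares 23.0% and U2AF1L4 18.0% of the PSENEN exon bases, and on the same strand AD000671.1 shares 15.4% of them. Also on the opposite strand lie C1orf54, which shares 14.1% of the exon bases of APH1A, and COPA, with 3.09% of those of NCSTN. The pseudogene TBC1D27P shares 17.3% of those of TNFRSF13B on the same strand, so reads in these stretches may be split.

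Among 21 sheddases, their partners and related aspartyl proteases, ADAM17 was the 1 of 15 tested genes called in the mean of the KMS12PE clones, where 0.358% of all genes were called higher. ADAM17 is the metalloprotease that sheds many tumour necrosis factor family proteins. It had 106 and 102 CPM in clone A, 129 and 116 CPM in clone C, and 91.6 and 85.7 CPM in clone D, against 68.0 and 67.7 CPM in parental cells. No clone library overlapped the parental ones. ADAM17 rose by 0.61 in the mean (SE 0.08, adjusted p = 0.00555) and in each clone, clone A being called at 0.61 (adjusted p = 0.0278), clone C at 0.85 (adjusted p = 0.00229) and clone D at 0.38 (adjusted p = 0.0491, all edgeR). Of all genes 0.0244% were called higher in each of the 3 KMS12PE clones. The ADAM17 call in clone D was close to the threshold, and its single-clone calls were not run under the alternatives. The mean call was lost without either parental library (0.63 and 0.61, adjusted p = 0.0808 and 0.0868). The 21 neighbours of ADAM17 within 5 Mb had medians of 0.23 in A, 0.61 in C, with 7 called higher, and -0.02 in D, and IAH1 on the opposite strand shares 12.3% of its exon bases. ADAM10, the other main sheddase, had -0.02 (adjusted p = 0.981, edgeR).

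In KMS27 3 of 16 genes of this list rose and 4 fell, with a median of -0.00, where 13% of all genes were called higher and 12.7% lower. TSPAN5, a tetraspanin that carries ADAM10, had 0.416 to 2.80 CPM in the clones, against 14.0 and 14.9 CPM in parental cells, and fell by 3.39 (SE 0.26, adjusted p = 4.22e-05, edgeR). BACE1, an aspartyl protease that cuts ahead of gamma-secretase, had 0.166 and 0.213 CPM in B5, 1.35 and 0.960 CPM in C1, and 0.0337 and 0.0798 CPM in C5, against 3.77 and 3.39 CPM in parental cells. BACE1 fell in all 3 clones (adjusted p = 0.000368, 0.0121 and 0.000127, edgeR), as did 3.73% of all genes, and C5 held 3 counts against 191 in parental cells, a ratio of 0.0153 (exact 95% interval 0.00312 to 0.0453). FRMD8, which stabilises the iRhom partners of ADAM17, fell by 0.71 (SE 0.10, adjusted p = 0.00117), and TSPAN17 rose by 0.69 (SE 0.13, adjusted p = 0.00477, both edgeR). The TSPAN17 call was lost without parental replicate 1 (adjusted p = 0.0568). TSPAN33 rose by 0.86 (SE 0.17, adjusted p = 0.00738), with a clone mean of 127.5 CPM, against 70.05 CPM in parental cells. RHBDF2 rose by 0.42 (SE 0.11, adjusted p = 0.02) and SPPL2A fell by 0.31 (SE 0.10, adjusted p = 0.0439, all edgeR). The calls of TSPAN33, RHBDF2 and SPPL2A were not run under the alternatives. ADAM17 itself had 0.23 (adjusted p = 0.0876) and ADAM10 -0.12 (adjusted p = 0.338, edgeR). HM13, the signal peptide peptidase, fell in C5 by 0.55 (adjusted p = 0.0388), a call lost without any single library of the parental population, C1 or C5 (adjusted p = 0.065 to 0.236).

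Of 22 tested gamma-secretase substrates other than BCMA, 1 rose and 1 fell in the mean of the KMS12PE clones, PTPRK and CD44, where 0.358% of all genes were called higher and 1.12% lower. PTPRK, a receptor phosphatase, had 5.06 and 3.79 CPM in clone A, 10.9 and 14.7 CPM in clone C, and 21.5 and 20.6 CPM in clone D, against 0.0 and 0.157 CPM in parental cells (adjusted p = 0.000328, edgeR). Clone D held 367 PTPRK counts, against 1 in parental cells, a ratio of 252 (exact 95% interval 44.9 to 9970). CD44, an adhesion receptor for hyaluronan, had 0.225 and 0.232 CPM in clone A, 4.41 and 2.96 CPM in clone C, and 0.158 and 0.0 CPM in clone D, against 13.7 and 12.4 CPM in parental cells (adjusted p = 0.000192, edgeR). In clone D alone JAG1, a Notch ligand, was called at 1.02 (adjusted p = 0.0105, edgeR) and SPN, a mucin of leukocytes, at -0.65 (adjusted p = 0.0104). Those calls were lost without parental replicate 3 for JAG1 (adjusted p = 0.0823) and without either parental library for SPN (adjusted p = 0.0597 and 0.094).

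In KMS27 11 of 23 substrate genes rose and 2 fell, with a median log2 fold change of 0.42, beside -0.01 over all genes, of which 25.8% were called. SORT1, a sorting receptor, rose by 1.05 (SE 0.13, adjusted p = 0.000507), EPHA4, an ephrin receptor, by 0.76 (SE 0.11, adjusted p = 0.00163), and CDH1, the epithelial cadherin, by 0.86 (SE 0.11, adjusted p = 0.000678, all edgeR). SDC3, a heparan sulphate proteoglycan, had 6.37 and 6.06 CPM in B5, 1.05 and 1.42 CPM in C1, and 1.55 and 1.64 CPM in C5, against 0.653 and 0.780 CPM in parental cells, and rose by 1.68 (SE 0.27, adjusted p = 0.00236, edgeR). All 4 moved one way in 6 of 6 clone libraries. SDC1, the plasma cell marker CD138, had 290 and 306 CPM in B5, 496 and 498 CPM in C1, and 189.6 and 201 CPM in C5, against 353 and 381 CPM in parental cells. It was called in 2 opposite directions, with C1 at 0.44 (adjusted p = 0.0266) and C5 at -0.91 (adjusted p = 0.000931, both edgeR), the clones in which TNFRSF17 was highest and lowest on average. ERBB4, a receptor kinase, rose in B5 alone (1.28, adjusted p = 0.00386, edgeR).

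Few Notch target genes were tested, 3 in KMS12PE and 2 in KMS27. HES1 had 34.2 and 29.9 CPM in clone D, 3.15 and 4.72 CPM in clone A, and 2.20 and 2.12 CPM in clone C, against 3.16 and 3.93 CPM in KMS12PE parental cells. It rose in clone D by 3.17 on the log2 scale (adjusted p = 0.000133, edgeR), where 1.86% of all genes were called higher. HES1 differed among the clones (adjusted p = 3.29e-05, edgeR). The other tested targets were lowest on average in that clone: HEY1 had 0.0 and 0.267 CPM in clone D, against 1.41 CPM in each parental library (adjusted p = 0.0805), and NRARP had 5.99 and 7.57 CPM, against 7.55 and 8.33 CPM (adjusted p = 0.742, both edgeR). The median of the 3 in clone D was -0.21, so HES1 was the 1 target that was high where TNFRSF17 was high. In KMS27 HEY1 had 1.83 to 3.19 CPM in the clones, against 0.798 and 1.09 CPM in parental cells, and rose by 1.44 (SE 0.26, adjusted p = 0.00418, edgeR). In that contrast 13% of all genes were called higher. The HEY1 call was lost without parental replicate 1 (1.24, adjusted p = 0.069). HEY2, the other tested target in KMS27, had -0.36 (SE 0.33, adjusted p = 0.468, edgeR). For HEY2 2 of 6 clone libraries were above and 4 were below both parental ones.

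Other receptors of the tumour necrosis factor family were called in KMS27 in 7 of 13 cases, all higher (13% of all genes were called higher), with a median of 0.40. TNFRSF9, the costimulatory receptor 4-1BB, had 66.5 and 70.4 CPM in B5, 43.1 and 45.4 CPM in C1, and 32.5 and 35.9 CPM in C5, against 14.3 and 13.1 CPM in parental cells, a rise of 1.77 (SE 0.10, adjusted p = 9.59e-06, edgeR). TNFRSF1B, a receptor for tumour necrosis factor, rose by 3.07 (SE 0.28, adjusted p = 0.000121), with 4.79 to 12.7 CPM in the clones, against 0.979 and 0.897 CPM in parental cells. TNFRSF19 rose by 0.94 (SE 0.14, adjusted p = 0.00178) and TNFRSF1A, the main death-domain receptor for tumour necrosis factor, by 0.73 (SE 0.13, adjusted p = 0.00458, edgeR), the TNFRSF1A call being lost without parental replicate 1 (adjusted p = 0.0566). In KMS12PE 0 of 16 were called in the mean. There FAS, a death receptor, had 5.39 and 5.88 CPM in clone A, against 13.7 and 14.6 CPM in parental cells (-1.32, adjusted p = 0.0179), and TNFRSF1B had 88.8 and 75.0 CPM in clone D, against 55.9 and 54.2 CPM in parental cells (0.57, adjusted p = 0.0285, both edgeR). The FAS call was lost without any of the 4 libraries involved (adjusted p = 0.128 to 0.215) and that of TNFRSF1B without replicate 1 of D or either parental library (adjusted p = 0.11 to 0.151).

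Genes of plasma cell identity were set beside TNFRSF17, which is one of them. PRDM1, IRF4 and XBP1, the factors that fix the plasma cell state, had mean log2 fold changes of 0.08, 0.13 and -0.05 in KMS12PE (adjusted p = 0.942, 0.661 and 0.95) and -0.03, -0.09 and -0.21 in KMS27 (adjusted p = 0.839, 0.661 and 0.275, all edgeR). XBP1 passed at -0.34 in KMS27 without clone B5 (adjusted p = 0.0235). Among the KMS12PE clones IRF4 differed (adjusted p = 0.038), as did 8.22% of all genes, with clone D at 0.39 (adjusted p = 0.0563, both edgeR). PRDM1 and XBP1 did not (adjusted p = 0.931 and 0.208, edgeR). Among the KMS27 clones PRDM1 differed (adjusted p = 0.0192), as did 13.7% of all genes. IRF4 and XBP1 did not differ there (adjusted p = 0.315 and 0.0883, all edgeR). In KMS12PE 2 of 10 fell, where 1.12% of all genes were called lower. POU2AF1, a B cell coactivator, had 4.49 and 4.02 CPM in clone A and 4.58 and 5.36 CPM in clone C. Both libraries of clone D had 0.0 CPM, against 35.3 and 34.3 CPM in parental cells. Clone D was at least 204-fold lower with the floor of 3 counts over the population. POU2AF1 was called lower in A, C and D (adjusted p = 0.00109, 0.000848 and 7.28e-06, edgeR). Of all genes 0.0407% were called lower in each of the 3 clones. JCHAIN, the joining chain, had -0.64 (adjusted p = 0.0308, edgeR). JCHAIN lost its call in 5 of the fits that left out 1 library (adjusted p = 0.0528 to 0.364). CD38, a surface enzyme and antibody target, was called in clone D at 0.58 (adjusted p = 0.0161, edgeR), lost without replicate 1 of D or parental replicate 1 (adjusted p = 0.0528 and 0.0812).

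In KMS27 3 of the 10 fell in the mean, where 12.7% of all genes were called lower. CD38 had 79.9 and 74.9 CPM in B5, 79.0 and 97.9 CPM in C1, and 2.36 and 2.71 CPM in C5, against 106 and 112 CPM in parental cells (-2.07, adjusted p = 4.14e-06, edgeR), and its mean was -0.38 without clone C5 (adjusted p = 0.0579). MZB1, an antibody-secretion chaperone, fell by 1.08 (adjusted p = 0.000124) and JCHAIN by 0.87 (adjusted p = 0.0133, both edgeR), JCHAIN losing its call without parental replicate 2 or either library of C5 (adjusted p = 0.0531 to 0.144). In clone C5, where TNFRSF17 had its lowest level, 6 of the 10 fell (9.28% of all genes were called lower), PRDM1 among them at -0.37 (adjusted p = 0.0457, lost without any library of C5, C1 or the parental population, adjusted p = 0.0733 to 0.27). XBP1 was also among them at -0.54 (adjusted p = 0.0499, edgeR), close to the threshold, and its C5 call was not run under the alternatives. Summed over the 9 plasma cell genes other than TNFRSF17, the level was 2855 to 3494 CPM in the KMS12PE clones, against 3306 to 3632 CPM in parental cells, and 5589 to 10012 CPM in the KMS27 clones, against 9826 to 11554 CPM in parental cells. Their part in the TNFRSF17 values was not tested.

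Markers of other cell types were mostly not listed. Of 10 B cell genes 2 were tested in KMS12PE, and together they gave 73.0 to 109.8 CPM in the clones, against 59.0 and 62.5 CPM in parental cells, nearly all of it from BACH2. BACH2, a repressor of plasma cell fate, had 71.96 to 109 CPM in the clones, against 58.2 and 61.3 CPM in parental cells, and rose by 0.62 (SE 0.09, adjusted p = 0.0112, edgeR), lost without either parental library (adjusted p = 0.149 and 0.108). The other gene, SPIB, a B cell transcription factor, had -1.05 in the mean (adjusted p = 0.583) and -2.60 in clone D (adjusted p = 0.131, both edgeR), fitted on 0 to 13 counts per library. In KMS27 2 of 6 rose (13% of all genes were called higher), SPIB by 1.59 (adjusted p = 0.000206) and PAX5 by 0.80 (adjusted p = 0.000634, both edgeR). MS4A1, which encodes CD20, had 9.23 and 9.70 CPM in C5, against 0.326 and 0.117 CPM in parental cells (adjusted p = 0.000401, edgeR). MS4A1 was not called in B5 (-3.05, adjusted p = 0.123), C1 (0.86, adjusted p = 0.383) or the mean (1.06, adjusted p = 0.437, all edgeR). The 6 B cell genes together gave 46.2 to 67.3 CPM in the KMS27 clones, against 25.8 and 26.0 CPM in parental cells. The 3 listed markers of other blood cells, PECAM1, CD3E and NKG7, gave 2.98 to 12.4 CPM in the KMS27 clones, against 2.38 and 2.43 CPM in parental cells, and all 3 were called higher (adjusted p = 0.0102, 0.0289 and 0.041, edgeR). Each of these 3 calls was lost without either parental library (adjusted p = 0.0639 to 0.262) and without clone C5, where CD3E had 0.62 (adjusted p = 0.314), against 1.18 with it, PECAM1 had 0.61 (adjusted p = 0.172), against 1.12, and NKG7 had 3.15 (adjusted p = 0.0784), against 3.06. The CD3E call was also lost without either library of C5, and the NKG7 call without either library of C5 or replicate 1 of C1 (adjusted p = 0.0674 to 0.102). In KMS12PE PECAM1, the 1 listed marker of these, had 7.89 to 11.4 CPM in the clones, against 6.85 and 8.48 CPM in parental cells. Their part in the members' values was not tested.

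Whether the lines responded differently was tested in a joint fit of the 16 libraries over 11623 genes, as the response of KMS12PE minus that of KMS27. None of the 6 members in both tables passed, against 14.2% of all genes (6.45% with a higher and 7.7% with a lower response in KMS12PE). The difference was 0.37 for TNFRSF17 (SE 0.16, adjusted p = 0.152), -1.15 for TNFRSF13C (SE 0.59, adjusted p = 0.225), -0.25 for PSEN2 (SE 0.19, adjusted p = 0.434), -0.26 for NCSTN (SE 0.12, adjusted p = 0.195), -0.34 for APH1A (SE 0.20, adjusted p = 0.294) and 0.32 for PSENEN (SE 0.21, adjusted p = 0.357, all edgeR). The calls of APH1A and PSEN2 in KMS27 alone are therefore not shown to differ from KMS12PE. For TNFRSF17 the difference passed at 0.44 without replicate 2 of B5 (adjusted p = 0.0404). ADAM17 differed by 0.40 (adjusted p = 0.0353) and APH1B by -1.26 (adjusted p = 0.0331, edgeR), and APH1B lost that call without 1 library in 9 of 16 fits (adjusted p = 0.0503 to 0.132).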

How the data were processed

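RNA was measured in 16 libraries of 8 populations. The authors deposited 1 table of read counts per gene symbol for each line, with whole numbers and unequal totals, taken here as unnormalised counts. The build was hg38, per the submitters' processing notes. Which aligner, counter and annotation were used, and whether counting was stranded, is not given in the labels or notes at hand. Libraries started from 200 ng of total RNA and used poly-A selection (Kapa mRNA HyperPrep, Roche), per the labels' protocols. All listed genes reach 5 counts in 4 or more of the 8 libraries of their line, so a gene silent in most populations is missing, and a member silent in some of them entered only through the others.

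For each line a separate edgeR 4.0.16 model (R 4.3.3) was built with filterByExpr, which kept 12279 of 12592 KMS12PE genes and 14088 of 14560 KMS27 genes, TMM scaling and a quasi-likelihood test, 2-sided, with a mean per population. Benjamini-Hochberg adjustment ran over every tested gene, and genes under 0.05 were called. The standard error is the size of the log2 fold change over the root of the F statistic. CPM were computed here. Variation between libraries (biological coefficient of variation) came to 11.9% for KMS12PE and 14.3% for KMS27. A joint model of 11623 shared genes tested the line difference. Alternatives were DESeq2 1.42.0, its size factors, upper-quartile scaling, no filter, a replicate block, each clone with parental cells only, and each library left out. Leaving out each clone was chosen after seeing the data. The contrasts of clone A and clone B5 and the joint model were tested on simulated data. Intervals and floors cover counting error only. Where all clone libraries lay on the same side of the parental ones, the share of all genes doing so was not counted.

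Same-numbered libraries deviated together in KMS12PE. All 6 correlations of replicate differences between populations there were over 0.1 (0.254 to 0.537), so its numbers were taken as pairs. Even so, the calls and counts reported for KMS12PE come from the fit without the block, except where the block is named. The members and lists were chosen with earlier results of these data known. Named are all members, up to 4 called genes per list and line with the smallest adjusted p in the mean contrast and up to 2 called in a single clone only, the 5 genes most like TNFRSF17, and PRDM1, IRF4 and XBP1. ADAM10, then ADAM17, TSPAN33, RHBDF2, SPPL2A and HEY2 in KMS27, and HEY1, NRARP, SPIB and PECAM1 in KMS12PE were named after their values were seen. Genes were placed with GENCODE 29 on GRCh38 (11207 KMS12PE and 12205 KMS27 genes).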

Additional observations from a re-analysis of the deposited data

Results flagged for a closer look

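In edgeR's joint fit the response of the KMS12PE clones minus that of the KMS27 clones differed for 20 genes named by rule. Each response is against the line's own parental cells, and none of the 20 is a member. RHBDF2 at -0.79 (adjusted p = 0.00924) and TSPAN33 at -0.95 (adjusted p = 0.0372), named after their values were seen, differed as well (edgeR). Values are differences of log2 fold changes, so a positive value means a higher response in KMS12PE. The difference was positive for CD38 by 2.48 (adjusted p = 1.74e-07), TSPAN5 by 3.29 (adjusted p = 1.29e-05), FRMD8 by 1.00 (adjusted p = 0.00023) and MZB1 by 0.72 (adjusted p = 0.00399). It was also positive for SERP1 by 0.69 (adjusted p = 0.00714), BIRC3 by 0.80 (adjusted p = 0.0256), ADAM17 by 0.40 (adjusted p = 0.0353) and BIRC2 by 0.52 (adjusted p = 0.0372). RELA had a positive difference of 0.57 (adjusted p = 0.038). Negative differences were found for POU2AF1 by -6.15 (adjusted p = 2.01e-08), TNFRSF1B by -2.84 (adjusted p = 2.95e-05), SORT1 by -0.96 (adjusted p = 0.00208) and SPIB by -2.65 (adjusted p = 0.00286). A response lower in KMS12PE was also seen for FAS by -0.89 (adjusted p = 0.00372), HEY1 by -2.81 (adjusted p = 0.00381), CDH1 by -2.29 (adjusted p = 0.00615) and IKBKG by -0.82 (adjusted p = 0.0126). The last with a negative difference were NFKBIE by -0.89 (adjusted p = 0.014), APH1B by -1.26 (adjusted p = 0.0331) and TNFRSF1A by -0.73 (adjusted p = 0.0397). The POU2AF1 and APH1B values are fitted ones that depend on the near-empty libraries of clone D and are no bounds. Those of HEY1, SPIB and CDH1 also draw on few clone D counts, 0 and 3 for HEY1 and for SPIB and 0 and 6 for CDH1. For CD38 the KMS27 mean was -0.38 without clone C5, against -2.07 with it. Across the joint fit, 14.2% of all 11623 genes differed between the lines. With 2 libraries per population, single libraries were not examined for outlying values.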

How the results depend on the processing

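In the mean of the KMS12PE clones TNFRSF17 was not called as reported, but passed at 0.41 with upper-quartile scaling, 0.42 with DESeq2, 0.41 with the replicate block, 0.63 without clone A and 0.65 without clone C, while leaving out 1 library gave 0.36 to 0.49 and passed only without replicate 3 of clone D (0.45, adjusted p = 0.0446, edgeR). In KMS27 TNFRSF17 passed in C5 at -0.39 with the block and at -0.40 with parental cells only. With 1 library left out TNFRSF17 spanned 0.06 to 0.45 in B5, 0.20 to 0.44 in C1, -0.52 to -0.27 in C5, 0.66 to 0.85 for the spread among these clones and 0.24 to 0.49 for the difference between lines. Members called in the KMS12PE mean, 0 as reported, were 1 with upper-quartile scaling, DESeq2 or without clone A or C, 2 with the block and 0 to 1 with 1 library left out. With the block 1 was called in clone A and 2 in clone D. In the KMS27 mean, 2 as reported, members called were 4 with the block or without clone B5, 0 without clone C1 or C5 and 0 to 4 with 1 library left out. In B5 they were 0 with parental cells only and 0 to 4 with 1 library left out. In C1 they were 3 with DESeq2, 4 with the block or with parental cells only and 0 to 5 with 1 library left out. In C5 they were 3 with the block or with parental cells only and 0 to 3 with 1 library left out. Between lines they were 0 to 1. Where the all-gene count of the same setting is not given below, these member counts have no background beside them and are descriptions only.

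All genes called in KMS12PE were 798 with the block in the mean, against 181 as reported, 448 against 55 in A, 869 against 219 in C and 2019 against 634 in D, where parental cells only gave 334, and DESeq2 gave 97 in A. With 1 library left out these fell as low as 44, 22, 60 and 298. All genes called in the KMS27 mean, 3631 as reported, ran from 1285 to 5825 with 1 library left out, in B5 from 1224 to 5032 against 2959, in C1 from 856 to 5143 against 3049 and in C5 from 982 to 4420 against 2772, and with parental cells only they were 1153, 4716 and 4315 in B5, C1 and C5. Between lines all genes called were 1645 as reported, 2535 with the block and 978 to 2283 with 1 library left out.

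In KMS27 the numbers were not taken as pairs (correlations 0.0597 to 0.444). The block there gave NCSTN 0.28 (adjusted p = 0.0326) and PSENEN -0.35 (adjusted p = 0.0206) in the mean, TNFRSF13B 0.34 (adjusted p = 0.0488), NCSTN 0.36 (adjusted p = 0.0281) and APH1A 0.56 (adjusted p = 0.0141) in C1, and TNFRSF17 -0.39 (adjusted p = 0.0407) and APH1A 0.44 (adjusted p = 0.0433, all edgeR) in C5, and changed no other member's call. No member's called value changed sign under the alternatives run. The causes were not tested. Low counts limit the precision for TNFRSF13C, with 10 to 123 per library, and for APH1B, with 0 to 353.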
